A study of Homo sapiens with 9 samples.

Results

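The genes of the WNT signalling module were followed in TYUC-1, a cell line from a neuroendocrine esophageal carcinoma grown in suspension, during 6 days with EPZ-6438, a drug that blocks the enzyme activity of the histone methyltransferase EZH2. The 61 members were chosen by symbol from the 35762 genes of the deposited table and comprise the WNT ligands (19 genes), the Frizzled, LRP and ROR receptors (14), the R-spondin axis (9), secreted inhibitors (9), the intracellular feedback inhibitors NKD1, NKD2 and AXIN2 (3), β-catenin with APC and AXIN1 (3) and the TCF/LEF transcription factors (4). On day 6 against day 0, 24 members were higher and 4 were lower in the test across all genes, beside 28.9% and 25.7% of the 15345 genes tested. Of the rest, 12 were tested without passing it, 14 had counts too low to test and 7 were listed at 0 in every library. Every intracellular feedback inhibitor, 11 of the 19 ligands and 2 of the 4 TCF/LEF genes were among those that were higher, while CTNNB1, APC and AXIN1 did not pass the test on either day. NKD1, SFRP2, WNT1, WNT4, WNT5B, WNT6 and WNT9A had few counts on day 0 and could be tested through the later days. The counts of members higher are not free of that selection.

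WNT proteins are lipid-modified secreted ligands that bind a Frizzled receptor together with a co-receptor. Binding of LRP5 or LRP6 recruits Dishevelled and stops the destruction complex, in which APC and the Axins hold β-catenin for degradation, so that β-catenin enters the nucleus and acts with TCF/LEF factors on target genes. R-spondins raise the number of Frizzled receptors at the cell surface by binding LGR receptors and keeping the ubiquitin ligases RNF43 and ZNRF3 from removing Frizzled. NOTUM, SFRP and some DKK proteins block the ligands or co-receptors outside the cell, and AXIN2, NKD1 and NKD2 act inside it as brakes that the pathway itself induces. EZH2 supplies the enzyme activity of a Polycomb repressive complex, which places a repressive methyl mark on histone H3 and is known to sit at many developmental genes with CpG-rich promoters.

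Cells were taken on day 0, day 3 and day 6, with 3 libraries each that the series' design calls biological replicates. The labels give EPZ-6438 as the treatment of all 9 libraries, and their protocol names a dose of 2 uM or DMSO without saying which the day 0 cells received. No vehicle-treated library of day 3 or day 6 was analysed, so inhibitor exposure and time in culture cannot be told apart in any comparison. The study used 1 cell line, and nothing in the labels says that replicates came from separate cultures, so p-values measure the spread between these libraries, which may be technical. In bulk RNA, fewer cells of a type and less RNA per cell cannot be told apart.

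The libraries held 21638874 to 31235055 estimated counts, so 3 counts, the most that a count of 0 allows, corresponded to 0.098 to 0.141 CPM, the unit of level used here. Day 0 replicate 2 stood apart from the other day 0 libraries: a chi-square of its counts against theirs came to 47.6 and 55.4 per degree of freedom, against 4.94 between the other pair and at most 16.2 between libraries of day 3 or of day 6. Counts of members without it are given beside the results. In the list of neuroendocrine markers, POU2F3, which is a marker of tuft cells, averaged 285, 288.5 and 227 CPM on days 0, 3 and 6, while SYP averaged 5.85, 4.79 and 6.07 CPM and CHGA was at 0 in every library. NCAM1 averaged 6.25, 15.4 and 20.045 CPM. INSM1 averaged 4.41, 4.06 and 5.31 CPM, CHGB 1.38, 1.30 and 1.88 CPM, and NEUROD1 3.06, 2.71 and 2.74 CPM. These did not pass the test on either later day against day 0. The squamous list summed to at most 1.24, 1.61 and 7.66 CPM on the same days. Its marker KRT5 averaged 1.05, 0.416 and 6.15 CPM, lower on day 3 and higher on day 6 in the test against day 0. TP63 averaged 0.0625, 0.697 and 0.516 CPM, higher on both days, and KRT14 and KRT6A had too few counts to test. The fibroblast list spanned 55.3 to 60.1, 78.0 to 83.7 and 73.6 to 80.5 CPM, carried by PDGFRA, with COL1A1 at 0.492, 3.60 and 9.52 CPM and LUM at 0 on days 0 and 3. PDGFRB averaged 0.216, 0.689 and 0.738 CPM, while the days overlapped for COL1A2 and DCN. The endothelial list spanned 0.658 to 0.849, 1.26 to 2.07 and 1.58 to 2.24 CPM, with no overlap between day 0 and the later days, and its marker VWF averaged 0.288, 1.23 and 1.29 CPM. PECAM1 averaged 0.457, 0.539 and 0.517 CPM with overlapping days, and CDH5 and KDR had at most 1 pooled count a day. The leukocyte list spanned 1.40 to 2.38, 1.74 to 2.61 and 2.29 to 3.49 CPM. The part of these shifts in the results on WNT genes was not tested.

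Folds are log2 changes from the quasi-likelihood test of edgeR, with Benjamini-Hochberg adjustment over the 15345 genes tested and a threshold of 0.05; the spread of all 3 days is pooled. Values of a day are listed for replicates 1, 2 and 3. Of the 40 members tested, 22 were higher and 1 was lower on day 3 against day 0, where 22.5% and 18.1% of all genes tested were higher and lower. On day 6 against day 0 the counts were 24 and 4, against 28.9% and 25.7% of all genes. Of the 40 tested, 16 were called at least 2-fold higher, which held for 14.9% of all genes tested. The 3 libraries of each day did not overlap for 28 of the 40 on day 3 against day 0, where 53.8% of all genes did not overlap, and for 29 on day 6 against day 0, where the share was 58.7%. The members' median log2 change was 0.61 on day 3 and 0.62 on day 6, against 0.01 for all genes on both days, a description of the 40 that passed the filter on low counts and not of all 61. The median was 1.19 on day 6 over the 54 members with any count, a value that depends on the prior count of the fit, and 0.41 (0.39 on day 3) over the 35 averaging at least 1 CPM over all libraries. Of those, 20 of 35 members were higher and 4 lower on day 6 against day 0, beside 28.6% and 27.3% of all genes so limited. Genes low on day 0, such as WNT6, pass either limit through the later days. NKD1, SFRP2, WNT1, WNT4, WNT5B and WNT9A also passed the filter on low counts through the later days. The counts of members higher are therefore not free of that selection. With no filter, FZD10, ROR2, WNT7A, WNT5A, WNT3A, SFRP5 and RSPO4 were also higher on day 6 (adjusted p = 1.84e-05 to 0.0106), and FZD10, ROR2 and WNT7A each were so in 7 of the 9 fits without 1 library. In those fits FZD10, ROR2 and WNT7A passed the filter through the day 6 libraries, where they were high, so these calls are not free of that selection. The fits without a call each left out a day 6 library. Without day 0 replicate 2, 27 were higher and 3 lower on day 3, and 27 and 8 on day 6. The number lower on day 6 was 2 without day 0 replicate 1, without day 0 replicate 3 or without day 6 replicate 1. Scaling by library size alone moved the median of all genes to 0.09 on day 3 and 0.13 on day 6. It raised the higher share of all calls to 69.2% on day 3, against 55.3% with the TMM scaling used here, and to 66.6% on day 6, against 53.0%. Under that scaling 25 members were higher and 1 lower on day 6.

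**Figure D1:**
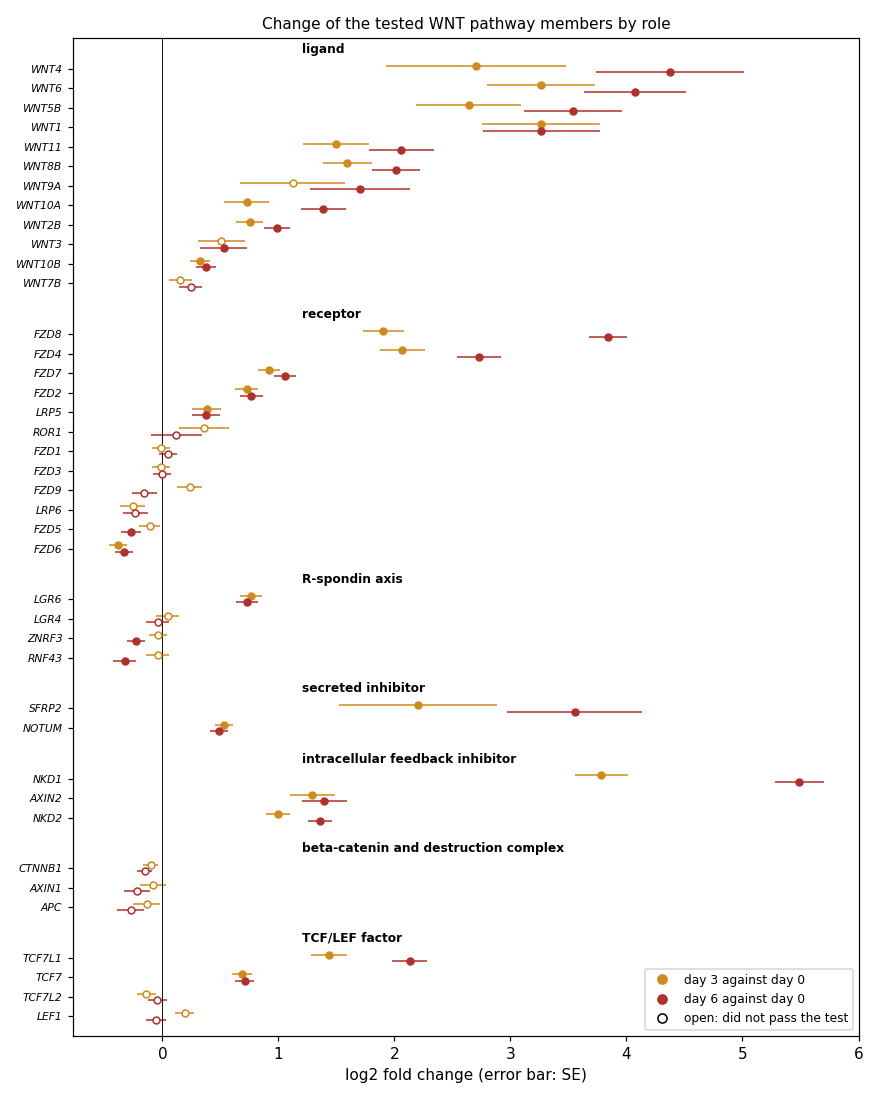
Log2 fold change of the 40 tested members on day 3 and on day 6, each against day 0, by role, with standard errors; filled points passed the test across all genes and open points did not. All 3 feedback inhibitors and 11 of the 12 tested ligands are filled points right of 0 on day 6, and FZD6, FZD5, RNF43 and ZNRF3 are the members called lower. Members low on day 0, such as NKD1 and WNT6, could be tested through the later days, where they were high.

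The intracellular feedback inhibitors held the member with the steepest change among those averaging at least 1 CPM. NKD1, which binds Dishevelled and dampens the signal, lies at chromosome 16, bases 50548330 to 50649249 (GRCh38, plus strand). NKD1 had 0.327, 0.340 and 0.141 CPM on day 0, 4.43, 3.65 and 3.56 CPM on day 3 and 12.4, 12.3 and 13.3 CPM on day 6. The days did not overlap, and the highest day 0 library was far below the lowest day 3 library. Its pooled counts were 21, 310 and 964, which gives ratios of 14.0 on day 3 against day 0 (exact 95% interval 8.97 to 22.9) and 45.4 on day 6 against day 0 (29.6 to 73.7), intervals of counting error alone. NKD1 was higher on both days (adjusted p = 6.18e-07 and 3.07e-09) and higher on day 6 than on day 3, with log2 change 1.70, SE 0.14, adjusted p = 8.24e-06. With 10, 8 and 3 counts on day 0, it passed the filter on low counts through the later days, where it was high. Its calls are therefore not free of that selection.

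NKD2 had 9.63, 8.46 and 9.02 CPM on day 0, 19.3, 18.0 and 16.9 CPM on day 3 and 25.2, 20.5 and 24.0 CPM on day 6. NKD2, its relative, was higher on day 3 (log2 change 1.00, SE 0.10, adjusted p = 2.73e-05) and on day 6 (log2 change 1.36, SE 0.10, adjusted p = 6.81e-07). Neither later day overlapped with day 0. AXIN2 had 2.12, 1.79 and 2.63 CPM on day 0, 5.74, 4.82 and 5.43 CPM on day 3 and 5.92, 4.39 and 6.84 CPM on day 6. Of its exon bases 25.18% are shared with a gene on the same strand that was at 0 in every library. All libraries of both later days were above every day 0 library for AXIN2, a destruction complex scaffold and a widely used readout of β-catenin activity. AXIN2 was higher on day 3 (log2 change 1.29, SE 0.20, adjusted p = 0.000380) and on day 6 (log2 change 1.40, SE 0.20, adjusted p = 9.04e-05). Days 6 and 3 overlapped, with a log2 difference of 0.10 (SE 0.18, adjusted p = 0.766). All 3 inhibitors kept these day 3 and day 6 calls in the 16 alternatives run for each.

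Of the 10 Frizzled genes, the 4 called higher on day 6 (FZD2, FZD7, FZD8 and FZD4) held places 6 to 9 on day 0 in level per transcript length, and none of the 5 genes above them was called higher. FZD8, on chromosome 10 at bases 35638249 to 35642278 (GRCh38, minus strand), is a single-exon Frizzled receptor. FZD8 had 1.44, 1.23 and 1.46 CPM on day 0, 4.55, 4.85 and 6.17 CPM on day 3 and 17.4, 19.3 and 22.7 CPM on day 6. No libraries of different days overlapped. FZD8 was higher on day 3 (log2 change 1.90, SE 0.18, adjusted p = 1.09e-05) and on day 6 (log2 change 3.84, SE 0.16, adjusted p = 7.09e-09), and higher on day 6 than on day 3 (log2 change 1.94, SE 0.14, adjusted p = 2.92e-06).

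FZD4 had 0.784, 1.02 and 1.22 CPM on day 0, 4.66, 3.51 and 4.39 CPM on day 3 and 6.86, 5.99 and 6.93 CPM on day 6. FZD4, at chromosome 11, bases 86945679 to 86955391 (GRCh38, minus strand), also serves as the receptor of Norrin. Its days did not overlap, and it was higher on day 3 (log2 change 2.07, SE 0.20, adjusted p = 1.38e-05) and on day 6 (log2 change 2.73, SE 0.19, adjusted p = 3.63e-07). Of its exon bases 18.95% also belong to PRSS23 on the other strand, and counts cannot be told apart there without strand. PRSS23 averaged 14.1, 12.7 and 9.08 CPM and was lower on day 6 against day 0 (log2 change -0.64, adjusted p = 0.000277). FZD7 had 6.17, 6.38 and 6.96 CPM on day 0, 12.4, 12.6 and 11.7 CPM on day 3 and 13.9, 12.8 and 13.8 CPM on day 6. FZD2 had 6.56, 6.08 and 6.30 CPM on day 0, 10.3, 10.8 and 10.2 CPM on day 3 and 10.5, 10.0 and 11.7 CPM on day 6. For both of these close relatives, every library of days 3 and 6 was above every day 0 library. FZD7 was higher on day 3 (log2 change 0.92, SE 0.09, adjusted p = 2.49e-05) and day 6 (log2 change 1.06, SE 0.09, adjusted p = 2.51e-06). FZD2 was higher on day 3 (log2 change 0.72, SE 0.10, adjusted p = 0.000198) and day 6 (log2 change 0.77, SE 0.10, adjusted p = 5.21e-05).

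FZD6 had 119.9, 132 and 116 CPM on day 0, 94.8, 94.6 and 93.0 CPM on day 3 and 101, 102 and 89.9 CPM on day 6. FZD6, a receptor tied more to planar cell polarity than to β-catenin, was lower on day 3 (log2 change -0.38, SE 0.08, adjusted p = 0.00239) and on day 6 (log2 change -0.33, SE 0.08, adjusted p = 0.00356). No later library reached the lowest day 0 library. With library size scaling its day 6 change was -0.21 (adjusted p = 0.0348). FZD5 had 24.7, 24.6 and 29.2 CPM on day 0, 25.2, 23.8 and 23.6 CPM on day 3 and 20.8, 22.9 and 21.3 CPM on day 6. FZD5 was lower on day 6 against day 0 (log2 change -0.27, SE 0.09, adjusted p = 0.0214) with no overlap, while the day 3 difference of -0.11 did not pass (adjusted p = 0.345). The day 6 call of FZD5 was lost with library size scaling (log2 -0.16, adjusted p = 0.219), without day 0 replicate 3 (-0.19, 0.0906), without day 6 replicate 1 (-0.25, 0.0671) and in a fit of days 0 and 6 alone (-0.27, 0.0575). FZD1 averaged 38.1, 37.8 and 39.4 CPM and FZD3 91.2, 90.3 and 91.1 CPM, without passing any comparison. FZD10 had 0, 12 and 44 pooled counts, under the limit for testing. Its ratio to a floor of 3 counts over the day 0 libraries was 3.78 on day 3 and 14.5 on day 6. Such ratios to a floor take the later day's count as exact, without its counting error.

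LRP5 had 110.3, 78.7 and 110.5 CPM on day 0, 131, 134 and 125 CPM on day 3 and 128, 117 and 144 CPM on day 6. LRP5, a co-receptor, was higher on day 3 (log2 change 0.38, SE 0.12, adjusted p = 0.0279) and day 6 (log2 change 0.38, SE 0.12, adjusted p = 0.0221). Both later days lay above day 0, where replicate 2 was the lowest library. Without that replicate the log2 changes of LRP5 were 0.23 on day 3 (adjusted p = 0.0261) and 0.22 on day 6 (0.0243). The day 3 call was lost without any 1 of the day 3 libraries (adjusted p = 0.0571 to 0.0868) and the day 6 call without day 6 replicate 1 (adjusted p = 0.0545) or 3 (0.110). LRP6, the other co-receptor, averaged 137 ± 20.5, 115 ± 5.17 and 116 ± 9.45 CPM (SD, n = 3) and did not pass on day 3 or day 6 (adjusted p = 0.0752 and 0.0841). Without day 0 replicate 2 it was lower on day 3 (log2 change -0.37, adjusted p = 0.000839) and day 6 (-0.35, 0.000701). It was also lower with no filter on both days (0.0462 and 0.0439) and with DESeq2 on day 3 (0.0429). ROR1, a receptor tyrosine kinase for WNT5A, averaged 2.31, 2.99 and 2.52 CPM and did not pass. ROR2 had 0, 6 and 29 pooled counts, a ratio of 9.57 to the day 0 floor on day 6.

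Per kilobase of transcript, which allows levels of different genes to be set side by side, the summed Frizzled level was 59.0 ± 1.74 CPM per kb on day 0, 56.9 ± 0.589 on day 3 and 60.8 ± 0.776 on day 6 (SD, n = 3). FZD6 ranked first on every day, at 54.9%, 43.7% and 42.4% of that sum. On day 0 FZD9 and FZD1 (5.42 ± 0.541 and 5.47 ± 0.237 CPM per kb) did not differ beyond their spread, nor did FZD2, FZD8 and FZD9 on day 6 (5.09 ± 0.407, 4.91 ± 0.663 and 4.87 ± 0.513). FZD8 supplied 0.58% ± 0.07 on day 0, 2.27% ± 0.40 on day 3 and 8.09% ± 1.19 on day 6, and moved to place 5 of the family on day 6 from place 8 on day 0.

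**Figure D2:**
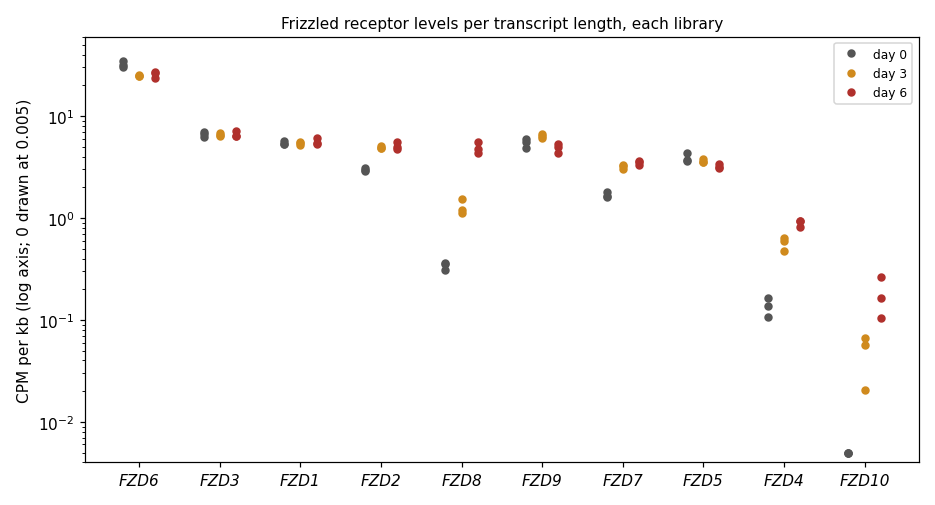
Level of the Frizzled genes in CPM per kilobase of the longest annotated transcript (log axis), one point per library on days 0, 3 and 6, with a value of 0 drawn at the bottom of the axis. FZD6 is on top on each day, and FZD8 and FZD4 lie highest on day 6.

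For the 4 members with the largest log2 change on day 6 among those called, averaging at least 1 CPM and holding a RefSeq promoter entry, the promoter is printed as the 250 bases before the annotated start (GRCh38.p14, 5′ to 3′ on the gene's strand, CpG dinucleotides in capitals), because EZH2 is known to act at CpG-rich promoters. They belong to the ligand WNT6, the receptors FZD8 and FZD4 and the transcription factor TCF7L1.
WNT6: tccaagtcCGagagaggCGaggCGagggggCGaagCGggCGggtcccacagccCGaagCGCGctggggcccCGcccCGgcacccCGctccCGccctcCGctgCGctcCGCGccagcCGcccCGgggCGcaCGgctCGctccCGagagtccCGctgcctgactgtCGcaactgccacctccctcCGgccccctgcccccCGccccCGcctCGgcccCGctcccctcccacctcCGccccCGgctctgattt
FZD8: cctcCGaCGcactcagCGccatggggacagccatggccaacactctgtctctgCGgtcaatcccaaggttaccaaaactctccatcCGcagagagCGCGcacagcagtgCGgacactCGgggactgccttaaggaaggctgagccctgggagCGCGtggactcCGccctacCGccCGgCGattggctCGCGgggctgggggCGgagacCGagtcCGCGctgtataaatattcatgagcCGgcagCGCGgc
FZD4: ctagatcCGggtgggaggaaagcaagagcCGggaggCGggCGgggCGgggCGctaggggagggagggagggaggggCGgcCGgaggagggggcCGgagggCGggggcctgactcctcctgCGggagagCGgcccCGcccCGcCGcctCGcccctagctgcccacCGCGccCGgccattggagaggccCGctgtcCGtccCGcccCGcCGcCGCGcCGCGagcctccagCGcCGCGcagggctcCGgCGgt
TCF7L1: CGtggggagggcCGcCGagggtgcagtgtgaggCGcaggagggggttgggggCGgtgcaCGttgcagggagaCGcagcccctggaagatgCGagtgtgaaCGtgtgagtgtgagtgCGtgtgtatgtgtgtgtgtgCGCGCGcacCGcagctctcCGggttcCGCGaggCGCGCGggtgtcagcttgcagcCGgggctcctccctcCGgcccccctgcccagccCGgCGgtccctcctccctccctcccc

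The WNT6 window lies at chr2:218859555-218859804 (plus strand) with 32 CpG and 79.2% G+C, that of FZD8 at chr10:35642297-35642546 (minus strand) with 24 and 65.2%, that of FZD4 at chr11:86955396-86955645 (minus strand) with 33 and 80.8%, and that of TCF7L1 at chr2:85133142-85133391 (plus strand) with 24 and 72.0%. Of the 61 members, 42 matched the RefSeq table, and their windows held a median of 23.5 CpG, against 11 over all 27305 promoters. The median was 24 for the 17 matched members higher on day 6 (range 3 to 44), 21 for the 9 tested without passing and 21 for the 14 with too few counts to test. The ranges overlapped: SFRP2, WNT5B and WNT8B, with 11, 10 and 3 CpG, were higher on day 6, and CTNNB1, with 34, did not pass. Under the limit of 1 CPM, WNT4, SFRP2, WNT5B and WNT1, with 40, 11, 10 and 29 CpG, had larger log2 changes than the printed FZD4 and TCF7L1. The TCF/LEF motif CTTTGAT, searched on both strands (reverse complement ATCAAAG), was found in 0 of the 42 windows and in 2.28% of all promoters. No chromatin data were analysed here, so whether EZH2 or its mark was present at these promoters was not measured.

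Of the 19 ligands, 12 were tested. Of these, 9 were higher on day 3 and 11 on day 6, beside 22.5% and 28.9% of all genes, and none was lower. WNT6, WNT1, WNT4, WNT5B and WNT9A passed the filter on low counts through the later days. These counts are therefore not free of that selection. The highest on a per-length scale were WNT10B, WNT7B and WNT10A on day 0. WNT10A had 3.92, 6.76 and 4.94 CPM on day 0, 8.01, 7.79 and 9.91 CPM on day 3 and 11.2, 14.0 and 15.5 CPM on day 6. WNT10B had 10.4, 10.5 and 10.4 CPM on day 0, 13.0, 13.6 and 12.5 CPM on day 3 and 13.8, 12.8 and 14.1 CPM on day 6. All later libraries of both genes were above those of day 0. WNT10A was higher on day 3 (log2 change 0.73, SE 0.19, adjusted p = 0.0112) and day 6 (log2 change 1.39, SE 0.19, adjusted p = 8.04e-05). WNT10B was higher on day 3 (log2 change 0.32, SE 0.09, adjusted p = 0.0109) and day 6 (log2 change 0.38, SE 0.09, adjusted p = 0.00274). The day 3 calls were lost for WNT10A without day 3 replicate 3 (log2 0.60, adjusted p = 0.0538) and for WNT10B without day 3 replicate 2 (0.29, 0.0549). WNT7B averaged 14.1 ± 0.708, 15.7 ± 0.823 and 16.7 ± 1.79 CPM and did not pass on either day (adjusted p = 0.225 and 0.0533). It was higher on day 6 with library size scaling (0.00869), with genes of at least 1 CPM (0.0356) and without day 6 replicate 2 (0.0174).

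WNT2B had 6.07, 4.97 and 6.20 CPM on day 0, 9.39, 10.1 and 9.56 CPM on day 3 and 10.7, 11.0 and 12.6 CPM on day 6. Neither later day overlapped with day 0 for WNT2B, which activates β-catenin signalling in several epithelia. WNT2B was higher on day 3 (log2 change 0.75, SE 0.12, adjusted p = 0.000445) and day 6 (log2 change 0.99, SE 0.12, adjusted p = 2.33e-05). Of its exon bases 21.18% are shared with ST7L on the other strand, which averaged 23.1, 16.5 and 14.8 CPM and was lower on day 6 (log2 -0.65, adjusted p = 3.75e-05). WNT11 had 1.04, 1.11 and 0.470 CPM on day 0, 3.06, 2.24 and 2.26 CPM on day 3 and 3.16, 3.57 and 4.48 CPM on day 6. WNT11, a ligand known for β-catenin-independent signalling, was higher on day 3 (log2 change 1.50, SE 0.28, adjusted p = 0.00164) and day 6 (log2 change 2.06, SE 0.28, adjusted p = 7.01e-05). It showed no overlap with day 0. WNT8B had 0.849, 0.893 and 0.846 CPM on day 0, 2.38, 2.91 and 2.52 CPM on day 3 and 3.26, 2.97 and 4.26 CPM on day 6. WNT8B, known from the developing forebrain, was higher on day 3 (log2 change 1.59, SE 0.21, adjusted p = 0.000152) and day 6 (log2 change 2.01, SE 0.21, adjusted p = 8.28e-06), again with no overlap with day 0. WNT3 had 1.31, 1.57 and 1.13 CPM on day 0, 2.09, 1.84 and 1.78 CPM on day 3 and 2.12, 1.77 and 1.89 CPM on day 6. WNT3, a β-catenin-activating ligand, was called on day 6 (log2 change 0.53, SE 0.20, adjusted p = 0.0457) but not on day 3 (adjusted p = 0.0667). The day 6 call of WNT3 was lost in 12 of 16 alternatives, among them with no filter on low counts (adjusted p = 0.103), in DESeq2 (0.109), in the fit of days 0 and 6 alone (0.0787) and without day 0 replicate 1, day 0 replicate 3 or any 1 of the day 3 or day 6 libraries (0.0542 to 0.156).

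WNT6, WNT1, WNT4, WNT5B and WNT9A had fewer than 10 counts in every day 0 library and passed the filter through the later days, where they were high, so their calls are not free of that selection. WNT6, at chromosome 2, bases 218859821 to 218874233 (GRCh38, plus strand), had 2, 4 and 3 counts on day 0, 30, 34 and 31 on day 3 and 42, 42 and 73 on day 6, with no overlap between day 0 and the later days. Its pooled ratio was 9.98 on day 3 (exact 95% interval 5.04 to 22.5) and 17.3 on day 6 (8.87 to 38.5), and it was called on both days (adjusted p = 0.000247 and 1.22e-05). WNT1, the founding member of the family, had 4, 0 and 2 counts on day 0, 22, 25 and 17 on day 3 and 23, 16 and 22 on day 6, and its ratio was 10.1 on both days (4.39 to 28.5 on day 3 and 4.37 to 28.5 on day 6; adjusted p = 0.000446 and 0.000201). No later library overlapped with day 0, and days 3 and 6 overlapped. WNT4 had 1, 0 and 1 counts on day 0, 8, 6 and 2 on day 3 and 17, 18 and 14 on day 6, with ratios of 7.57 (1.78 to 67.8) and 24.2 (6.36 to 206) and adjusted p of 0.0157 and 0.000124; the day 3 call was lost without day 3 replicate 1 (adjusted p = 0.0684). WNT5B had 3, 1 and 3 counts on day 0, 17, 16 and 15 on day 3 and 32, 20 and 34 on day 6, with ratios of 6.49 (2.92 to 17.0) and 12.2 (5.66 to 31.1; adjusted p = 0.000832 and 2.5e-05). For both, every library of the later days was above every day 0 library. WNT9A had 5, 8 and 2 counts on day 0, 9, 14 and 12 on day 3 and 18, 13 and 19 on day 6 and was higher on day 6 with a ratio of 3.30 (1.82 to 6.33; adjusted p = 0.00543), while its day 3 ratio of 2.21 (1.17 to 4.35) did not pass (adjusted p = 0.0664). That day 3 difference passed with library size scaling (0.0471) and without day 0 replicate 2 (0.0180).

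The other 7 ligands were not tested. WNT7A had 2, 9 and 34 pooled counts, a ratio of 16.8 on day 6 against day 0 (4.31 to 145). WNT5A, with 0, 12 and 12 pooled counts, had ratios of 3.78 and 3.96 to the day 0 floor on days 3 and 6. WNT3A, with 0, 1 and 14, had a ratio of 4.62 to that floor on day 6. WNT9B had 8, 9 and 1 pooled counts, a ratio of 0.124 on day 6 (0.00279 to 0.923). WNT2 and WNT8A each had 0, 2 and 2 pooled counts, and WNT16 had 0, 0 and 1. Among ligand genes next to each other, WNT6 and WNT10A, 6129 bases apart on chromosome 2, were both higher on day 6, as were WNT10B and WNT1, 6689 bases apart on chromosome 12. In the other pairs, WNT3 with WNT9B (46 bases, chromosome 17) and WNT9A with WNT3A (59152 bases, chromosome 1), the second gene had too few counts to test. Summed per kilobase, the ligands reached 12.3 ± 0.566 CPM per kb on day 0, 19.0 ± 0.270 on day 3 and 23.7 ± 2.73 on day 6 (SD, n = 3). WNT10B stayed first in that order, at 37.4%, 30.2% and 25.3% of the sum, and WNT10A supplied 16.5%, 17.7% and 22.4%. WNT7B, second on day 0 with 29.3%, supplied 21.1% on day 3 and 18.0% on day 6.

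**Figure D3:**
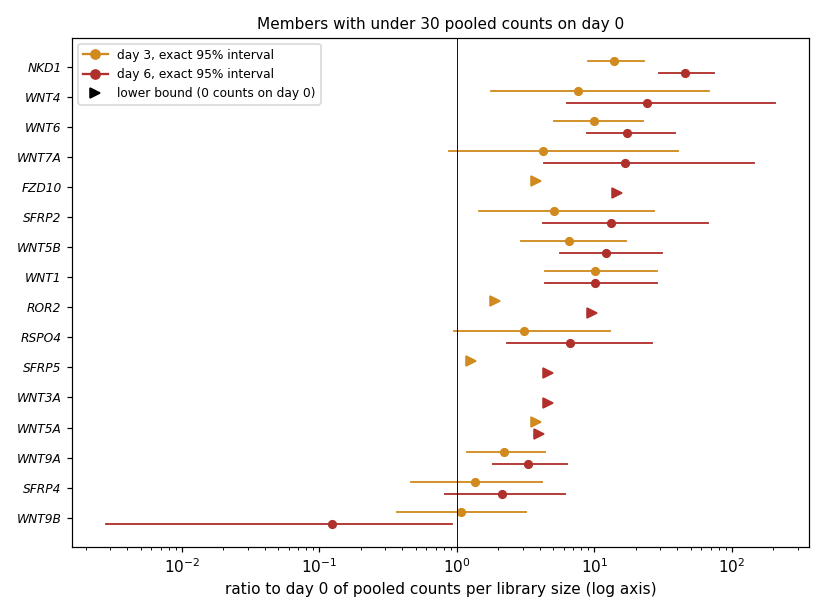
Ratio of pooled CPM on day 3 and day 6, each against day 0 (log axis), for members with fewer than 30 pooled counts on day 0, with exact 95% intervals that cover counting error only. Triangles, labelled lower bounds in the figure, are ratios to a floor of 3 counts that take the later day's count as exact. NKD1 has the narrowest interval far from 1, and WNT9B is the member below 1 on day 6.

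Genes of the R-spondin axis moved in both directions. LGR6 had 13.5, 13.2 and 15.8 CPM on day 0, 23.4, 25.0 and 23.4 CPM on day 3 and 22.2, 22.9 and 25.2 CPM on day 6. LGR6, a receptor for R-spondins, was higher on day 3 (log2 change 0.76, SE 0.09, adjusted p = 8.50e-05) and day 6 (log2 change 0.73, SE 0.09, adjusted p = 4.46e-05). The later libraries had no overlap with day 0. RNF43 had 23.0, 17.6 and 21.0 CPM on day 0, 20.6, 19.2 and 20.2 CPM on day 3 and 16.6, 16.1 and 16.7 CPM on day 6. ZNRF3 had 84.3, 72.1 and 86.1 CPM on day 0, 78.7, 80.0 and 77.3 CPM on day 3 and 69.7, 67.3 and 69.7 CPM on day 6. Both ligases that clear Frizzled from the surface were lower on day 6 against day 0, RNF43 with log2 change -0.32, SE 0.10, adjusted p = 0.0162 and ZNRF3 with log2 change -0.23, SE 0.08, adjusted p = 0.0249, and in each case no day 6 library reached the lowest day 0 library. Neither passed on day 3 (adjusted p = 0.778 and 0.717). RNF43's day 6 call was lost with library size scaling (log2 -0.21, adjusted p = 0.144) and without day 0 replicate 1 (-0.23, 0.0733). ZNRF3's was lost in 6 of 16 alternatives: library size scaling (-0.12, 0.306), the fit of days 0 and 6 alone (-0.23, 0.0741), and without day 0 replicate 1 (-0.20, 0.0772), day 0 replicate 3 (-0.19, 0.0879), day 6 replicate 1 (-0.25, 0.0503) or day 6 replicate 2 (-0.21, 0.0653). Of RNF43's exon bases 57.64% also belong to another annotated gene on the same strand and 20.27% to one on the other strand, neither of them in the table, so its counts are uncertain. LGR4 averaged 32.9, 33.9 and 31.9 CPM and did not pass. RSPO4 had 4, 13 and 27 pooled counts, a ratio of 6.68 on day 6 (2.33 to 26.3), RSPO2 had 0, 3 and 1, and LGR5, RSPO1 and RSPO3 were at 0 in all 9 libraries.

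Of the secreted inhibitors, NOTUM and SFRP2 had enough counts to test. NOTUM had 18.1, 18.2 and 18.5 CPM on day 0, 26.7, 26.1 and 26.1 CPM on day 3 and 26.4, 23.6 and 26.7 CPM on day 6. NOTUM, a secreted enzyme that removes the lipid from WNT proteins, was higher on day 3 (log2 change 0.53, SE 0.08, adjusted p = 0.000284) and day 6 (log2 change 0.49, SE 0.08, adjusted p = 0.000223). Again the later libraries had no overlap with day 0. SFRP2, a secreted decoy with a Frizzled-like domain, had 1, 2 and 0 counts on day 0, 5, 6 and 5 on day 3 and 19, 10 and 11 on day 6, and passed the filter through the later days. Its ratio was 5.04 on day 3 (exact 95% interval 1.44 to 27.0; adjusted p = 0.0224) and 13.2 on day 6 (4.20 to 66.7; adjusted p = 0.000294). The day 3 call of SFRP2 was lost in DESeq2 (adjusted p = 0.0650) and without day 0 replicate 1 (0.0758), day 0 replicate 3 (0.0624), day 3 replicate 2 (0.0568) or day 3 replicate 3 (0.0591). SFRP5 had 0, 4 and 14 pooled counts, a ratio of 4.62 to the day 0 floor on day 6. SFRP4 had 7, 10 and 15 pooled counts, and SFRP1 had 0, 2 and 3. All 4 DKK genes were at 0 in every library.

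None of the 3 genes of β-catenin and its destruction complex passed. CTNNB1, the gene of β-catenin, averaged 276 ± 9.61 CPM on day 0, 258 ± 4.65 on day 3 and 248 ± 4.57 on day 6 (adjusted p = 0.250 and 0.0702 against day 0). APC averaged 49.7, 45.3 and 41.1 CPM (adjusted p = 0.386 and 0.0693), and AXIN1 75.1, 70.9 and 64.4 CPM (adjusted p = 0.588 and 0.120). Without day 0 replicate 2 all 3 were lower on day 6 against day 0, by log2 changes of -0.14 for CTNNB1 (adjusted p = 0.0333), -0.36 for APC (0.00857) and -0.36 for AXIN1 (0.000585). APC was also lower on day 6 with DESeq2 (adjusted p = 0.0497) and with no filter (0.0292), and CTNNB1 with DESeq2 (0.0156). With library size scaling the values were -0.03, -0.16 and -0.11, and none passed.

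Among the nuclear factors, TCF7L1, which acts mostly as a repressor of WNT targets, lies at chromosome 2, bases 85133410 to 85310388 (GRCh38, plus strand). TCF7L1 had 4.38, 4.46 and 3.10 CPM on day 0, 11.6, 10.0 and 11.0 CPM on day 3 and 16.7, 15.6 and 20.6 CPM on day 6. The 3 days did not overlap. TCF7L1 was higher on day 3 (log2 change 1.44, SE 0.15, adjusted p = 3.29e-05), on day 6 (log2 change 2.13, SE 0.15, adjusted p = 3.85e-07) and on day 6 against day 3 (log2 change 0.70, SE 0.14, adjusted p = 0.00422). TCF7 had 19.1, 21.3 and 19.7 CPM on day 0, 32.4, 31.2 and 33.0 CPM on day 3 and 33.9, 29.9 and 34.4 CPM on day 6. TCF7, which encodes TCF1, was higher on day 3 (log2 change 0.69, SE 0.08, adjusted p = 7.58e-05) and day 6 (log2 change 0.71, SE 0.08, adjusted p = 2.10e-05), with no overlap with day 0. TCF7L2 averaged 22.2, 20.1 and 21.5 CPM and LEF1 30.3, 34.5 and 29.1 CPM, without passing any of the 3 comparisons, though LEF1 was higher on day 3 without day 0 replicate 2 (adjusted p = 0.0114) and with library size scaling (0.0187). Per kilobase the 4 factors summed to 19.2 ± 1.34, 24.5 ± 0.519 and 25.6 ± 1.10 CPM per kb (SD, n = 3). LEF1 held 45.4%, 40.5% and 32.7% of that sum and TCF7L1 6.99%, 15.0% and 23.1% on days 0, 3 and 6.

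**Figure D4:**
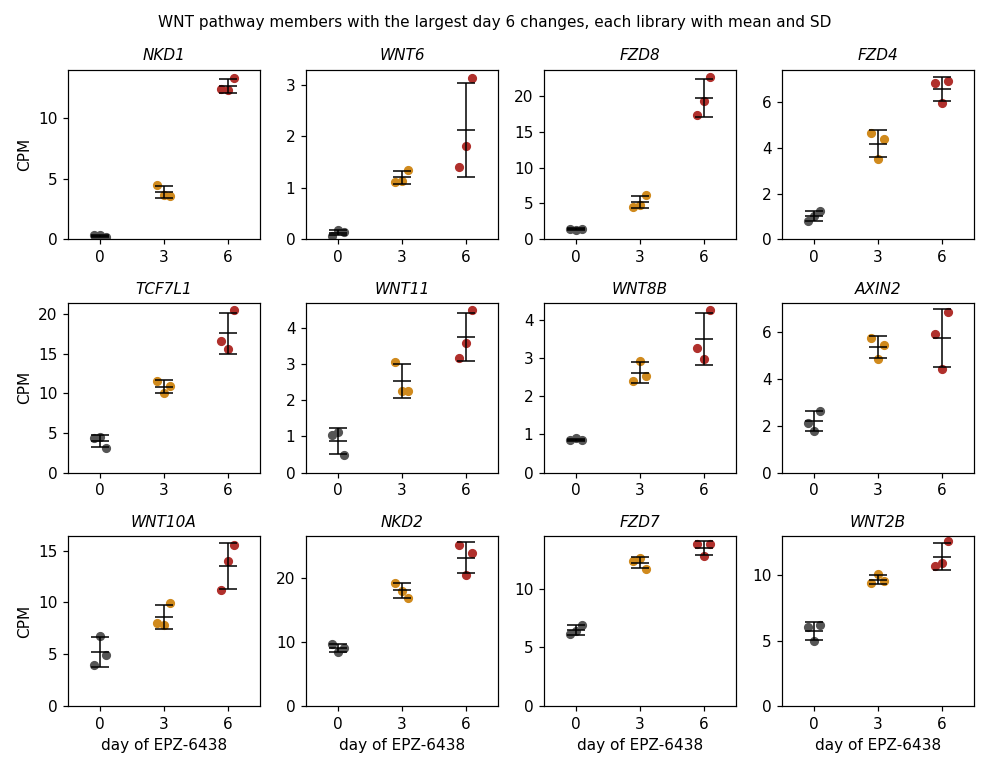
CPM of 12 members in each of the 9 libraries on days 0, 3 and 6, chosen as those with the largest log2 change on day 6 against day 0 among called members averaging at least 1 CPM; points are libraries and bars the mean ± SD (n = 3). NKD1 and FZD8 climb on each day, while AXIN2 and FZD7 have overlapping or nearly overlapping libraries on days 3 and 6.

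Fewer members differed between the later days. On day 6 against day 3, 7 members were higher and 1 was lower of the 40 tested, beside 11.5% and 4.76% of all genes, and the libraries of the days did not overlap for 23 members, beside 43.5% of all genes. The members' median log2 change was 0.06. NKD1, FZD8 and TCF7L1 kept their call in all 16 alternatives. FZD4 was higher (log2 change 0.66, SE 0.16, adjusted p = 0.0152) but not without day 3 replicate 2, day 6 replicate 1 or day 6 replicate 3 (adjusted p = 0.0637 to 0.0871). NKD2 was higher (log2 change 0.36, SE 0.10, adjusted p = 0.0254) but not without day 3 replicate 2 or 3 or day 6 replicate 1 or 3 (0.0918 to 0.123). WNT10A was higher (log2 change 0.66, SE 0.18, adjusted p = 0.0271) but not without day 3 replicate 1 or 2 or day 6 replicate 2 or 3 (0.0961 to 0.127). WNT4 was higher (ratio 3.20, exact 95% interval 1.79 to 6.04, adjusted p = 0.0211) but not in DESeq2 (0.0668) or without day 3 replicate 2 or 3 or day 6 replicate 2 or 3 (0.0597 to 0.0940). FZD9 had 13.8, 11.3 and 12.9 CPM on day 0, 14.2, 15.8 and 14.8 CPM on day 3 and 11.6, 10.1 and 12.4 CPM on day 6. FZD9, the member called lower (log2 change -0.39, SE 0.11, adjusted p = 0.0277), lost its call with library size scaling (adjusted p = 0.0561) and without any 1 of the day 3 libraries, day 6 replicate 1 or day 6 replicate 2 (0.0527 to 0.122). The day 3 libraries lay above all day 6 libraries, and FZD9 did not pass on day 3 or day 6 against day 0 (adjusted p = 0.100 and 0.250). The number higher was 12 without day 0 replicate 2, 11 without day 0 replicate 3, 3 without day 3 replicate 2 and 4 without day 6 replicate 3, and the number lower was 4 without day 0 replicate 2 and 0 without any 1 of the day 3 libraries, day 6 replicate 1 or day 6 replicate 2.

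The other genes of the pathway, 77 by list, gave 63 that could be tested. Of these, 30 were higher and 5 lower on day 3 against day 0, and 37 and 10 on day 6, beside the shares of all genes given above, with median log2 changes of 0.37 and 0.47. Among secretion and transduction genes 10 of 25 were higher and 5 lower on day 6, beside 28.9% and 25.7% of all genes. TLE4, a corepressor that binds TCF/LEF factors, averaged 1.06, 2.03 and 5.18 CPM (log2 change 2.29 on day 6) and TLE2 20.2, 34.6 and 38.1 CPM (0.92). TRABD2A, a protease that inactivates WNT proteins, averaged 0.818, 1.90 and 3.70 CPM (2.16), and CXXC4 had 3, 12 and 47 pooled counts, a ratio of 15.5 on day 6 (exact 95% interval 4.99 to 77.9). WLS, which carries WNT proteins to the cell surface, had 0, 12 and 37 pooled counts, too few to test. Its ratio to the day 0 floor on day 6 was 12.2.

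Among the list of other inhibitors and modulators, not all of which are inhibitors, 9 of 11 were higher on day 6 against day 0 and 1 was lower. Of all genes tested, 28.9% were higher and 25.7% lower. BAMBI, a pseudoreceptor that dampens TGF-beta signals, had 1, 37 and 107 pooled counts, a ratio of 106 on day 6 against day 0 (exact 95% interval 18.6 to 4221). KREMEN2, which acts with DKK proteins on LRP6, averaged 9.50, 16.6 and 17.9 CPM (log2 change 0.92 on day 6), LRP4 averaged 7.68, 15.5 and 18.3 CPM (1.25), and DACT3 0.886, 2.36 and 3.02 CPM (1.74). Of the 12 planar polarity genes 7 were higher and 3 lower on day 6, beside those same shares of all genes, so the number lower was near the share. CELSR1, a core polarity cadherin, averaged 1.95, 8.19 and 25.9 CPM (log2 change 3.74 on day 6), and VANGL2 42.6, 58.2 and 67.4 CPM (0.66). DAAM2 had 6, 32 and 92 pooled counts, a ratio of 15.2 on day 6 (exact 95% interval 6.71 to 42.4), and its relative DAAM1, a formin downstream of Dishevelled, was lower at 129, 113 and 84.3 CPM (-0.61).

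Of the 15 target genes tested, 11 were higher on day 6 against day 0 and 1 was lower, beside 28.9% and 25.7% of all genes tested. CCND1, which encodes cyclin D1, averaged 29.2 ± 0.980 CPM on day 0, 40.7 ± 0.394 on day 3 and 66.8 ± 1.50 on day 6 (SD, n = 3), with a log2 change of 1.19 on day 6 (adjusted p = 5.03e-08). EPHB2, an ephrin receptor that β-catenin induces in the intestine, averaged 13.6, 35.4 and 37.0 CPM (1.44), SP6 0.413, 1.89 and 4.06 CPM (3.26) and VEGFA 176, 237 and 336 CPM (0.93). Without day 3 replicate 1, 2 or 3, the pathway genes lower on day 3 numbered 3, and without day 0 replicate 2 they numbered 8. These targets respond to other signals as well, and β-catenin protein was not measured here.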

How the data were processed

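Poly-A RNA was sequenced in 9 libraries of TYUC-1 cells, 3 each of day 0, day 3 and day 6. The deposited table holds estimated counts per gene symbol for every library; per the submitters' processing notes, kallisto 0.44.0, bcl2fastq 2.19, DESeq2 and the builds GRCh38, GRCm38 and hg38 were involved, with no roles given. How transcripts were summed to genes, and whether counting used strand, is not given in the sources used here, so overlapping genes share uncertain counts. The estimated counts deposited by the authors were rounded to whole numbers before use. The members were taken by symbol rule, and all members, the pathway lists and the markers were chosen with earlier results of these data known.

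Counts were scaled with TMM and tested with edgeR 4.0.16 under R 4.3.3 (quasi-likelihood test, filterByExpr with a minimum count of 10, all 9 libraries in 1 fit with a mean per day). The Benjamini-Hochberg adjustment ran over the 15345 genes tested, and the test was checked on simulated counts. Every tested member is named, library values are given for members called in any comparison, and up to 4 genes of each pathway list are named by the lowest p on day 6 against day 0; WLS lies outside that rule and was chosen after its values were seen. CPM use the TMM-scaled library size. For members with fewer than 30 pooled counts on a day, ratios of pooled counts have exact 95% Poisson intervals, which cover counting error only. A pooled count of 0 is replaced by a floor of 3 counts over the day's libraries. Ratios to that floor take the count of the other day as exact, so they leave out its counting error. Levels per kilobase use the longest GENCODE transcript on GRCh38. Promoter windows come from RefSeq (GRCh38.p14). No pair of libraries agreed within sampling noise. Alternatives were DESeq2 1.42.0 and its size factors, library size scaling, no filter, a mean of at least 1 CPM, a fit of the 2 days compared, a replicate block and leaving out each library. One marker of the cell line and the sum of its list are not reported here.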

Additional observations from a re-analysis of the deposited data

How the results depend on the processing

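The counts of members, pathway genes and all genes higher or lower were recomputed under every alternative, and no called value of a member changed sign. Scaling by library size alone left 1825 genes and 2 pathway genes lower on day 3 against day 0, 1 member lower on day 6 against day 0 and 0 members lower on day 6 against day 3. With no filter on low counts 2 members were lower on day 3, as with DESeq2, and with a mean of at least 1 CPM 10 pathway genes were higher on day 6 against day 3. A fit of only the 2 days compared left 2 members lower on day 6 against day 0, and 4 members and 1824 genes lower on day 6 against day 3; the cause was not tested. Leaving out 1 library at a time gave 1846 to 3370 genes, 1 to 3 members and 3 to 8 pathway genes lower on day 3 against day 0, and 2 to 8 members lower on day 6 against day 0. For day 6 against day 3 it gave 348 to 2090 genes and 0 to 4 members lower and 3 to 12 members higher. Over single members and comparisons, 59 alternatives lost a call and 37 gained one. With the replicate number as a block, 22 members were higher and 1 lower on day 3, 23 and 5 on day 6, and 7 and 1 on day 6 against day 3. APC was lower on day 6 with the block (adjusted p = 0.0373) and WNT3 was not called (0.0691). Same-numbered libraries did not deviate together (correlations of -0.0774 to 0.127), so the numbers were not taken to pair the libraries. Depth limits the 14 members with counts too few to test; 5 of them had 1 to 9 counts in all 9 libraries together, and 7 were higher on day 6 against day 0 with no filter.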
